A study of Arabidopsis thaliana with 8 samples.

Results

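The genes described here move zinc and copper across membranes in the plant Arabidopsis thaliana: the heavy metal ATPases HMA2 (AT4G30110), HMA3 (AT4G30120), HMA4 (AT2G19110) and HMA5 (AT1G63440), the ZIP family transporters ZIP1 (AT3G12750), ZIP4 (AT1G10970) and ZIP9 (AT4G33020), and the cation diffusion facilitator MTP1 (AT2G46800). They were chosen by locus, and each was to be represented by its brightest matched probe. A probe was matched for 7 of the 8 loci, out of 25383 loci with a matched probe on the array. ZIP4 had no matched probe and was not analysed here. Each of the 7 genes had exactly 1 matched probe, and all 7 probes were well above background on all 8 arrays.

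The arrays compared 2 tissues of unmutated plants of the accession Col-0 that were raised in hydroponics to 6 weeks of age: flower buds, with 4 arrays, and roots, with 4 arrays. Every replicate was tissue pooled from 8 to 10 plants, so p-values measure the spread between pools and not between single plants, and the number of arrays limits the precision. No metal treatment is given in the labels. In Col-0 the HMA3 gene is known to carry a frameshift and to make no working protein.

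Zinc and copper are needed by many enzymes and are toxic in excess, and plants control them by moving them between soil, cells, vacuoles and vessels. ZIP proteins carry zinc and other divalent metals into the cytoplasm, MTP1 and HMA3 load it into the vacuole, and HMA2 and HMA4 pump it out of cells next to the xylem so that it can travel to the shoot. HMA5 exports copper from root cells, and its loss makes roots sensitive to copper.

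Signal was measured with one-colour oligonucleotide arrays and is given as log2 of the background-subtracted signal relative to the 75th percentile of the same array. That percentile was 4149 to 4257 on flower bud arrays and 2218 to 3132 on root arrays. Differences are flower bud minus root ± SE (n = 4 arrays per tissue), from a limma fit over 22264 genes with Benjamini-Hochberg adjustment. Calls needed an adjusted p under 0.05 together with a difference of 2-fold or more. The tissue labels fitted their markers: all 7 floral organ identity markers were called higher in flower buds (summed linear level, in units of the 75th percentile, 38.2 to 47.2 in flower buds and 0.332 to 0.425 in roots), and AP3, SEP1 and SEP2 were not well above background on any root array. All 7 root endodermis markers were called higher in roots (summed level 0.251 to 0.296 in flower buds and 35.9 to 52.4 in roots). In such whole organs, fewer cells of a type and less RNA per cell cannot be told apart. All 8 arrays lay on 1 slide with flower buds in row 2 and roots in row 1, so row and tissue cannot be told apart.

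The transcripts of HMA3, HMA5, ZIP9 and HMA4 were lower in flower buds than in roots, by 30.7-fold, 16.1-fold, 5.93-fold and 2.29-fold. MTP1 was also lower in flower buds, by 1.85-fold, which is past the adjusted p threshold but under 2-fold. HMA2 and ZIP1 overlapped between the tissues, with differences of 0.40 ± 0.31 and 0.24 ± 0.14. The limma fit thus called 4 of the 7 genes (57.1%) higher in roots and 3 in neither direction. It called 0 of them higher in flower buds, and at an unadjusted p under 0.05 the number higher in flower buds was also 0, against 44.3% of all tested genes. With scaling on the reference genes, HMA2 and ZIP1 passed an adjusted p of 0.05 towards flower buds without reaching 2-fold. Over all 22264 genes, 55.0% were called, of which the genes higher in flower buds made up 29.8% of all tested genes, and those higher in roots 25.2%. The share called among the 7 genes is near that background and is no result about them. The ranges of the tissues did not overlap for 5 of the 7 genes, against 79.1% of all tested genes. The median difference was -1.20 over the 7 genes and 0.12 over all tested genes. Of all calls, 54.2% were higher in flower buds as reported and 67.5% when arrays were scaled on 8 reference genes, which raised every difference by 0.51. That share was 48.5% under normexp background correction, 46.3% when every array had to measure the gene well above background and 48.7% when dim probes were not filtered, so the majority of calls turned towards roots there. On the reported scale those reference genes differed by -1.32 to 0.07 (median -0.46), and 1 of the 8 was called higher in roots. Scaling on the array median shifted every difference by -0.13, and normexp background correction shifted the median of all genes by -0.13.

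**Figure D1:**
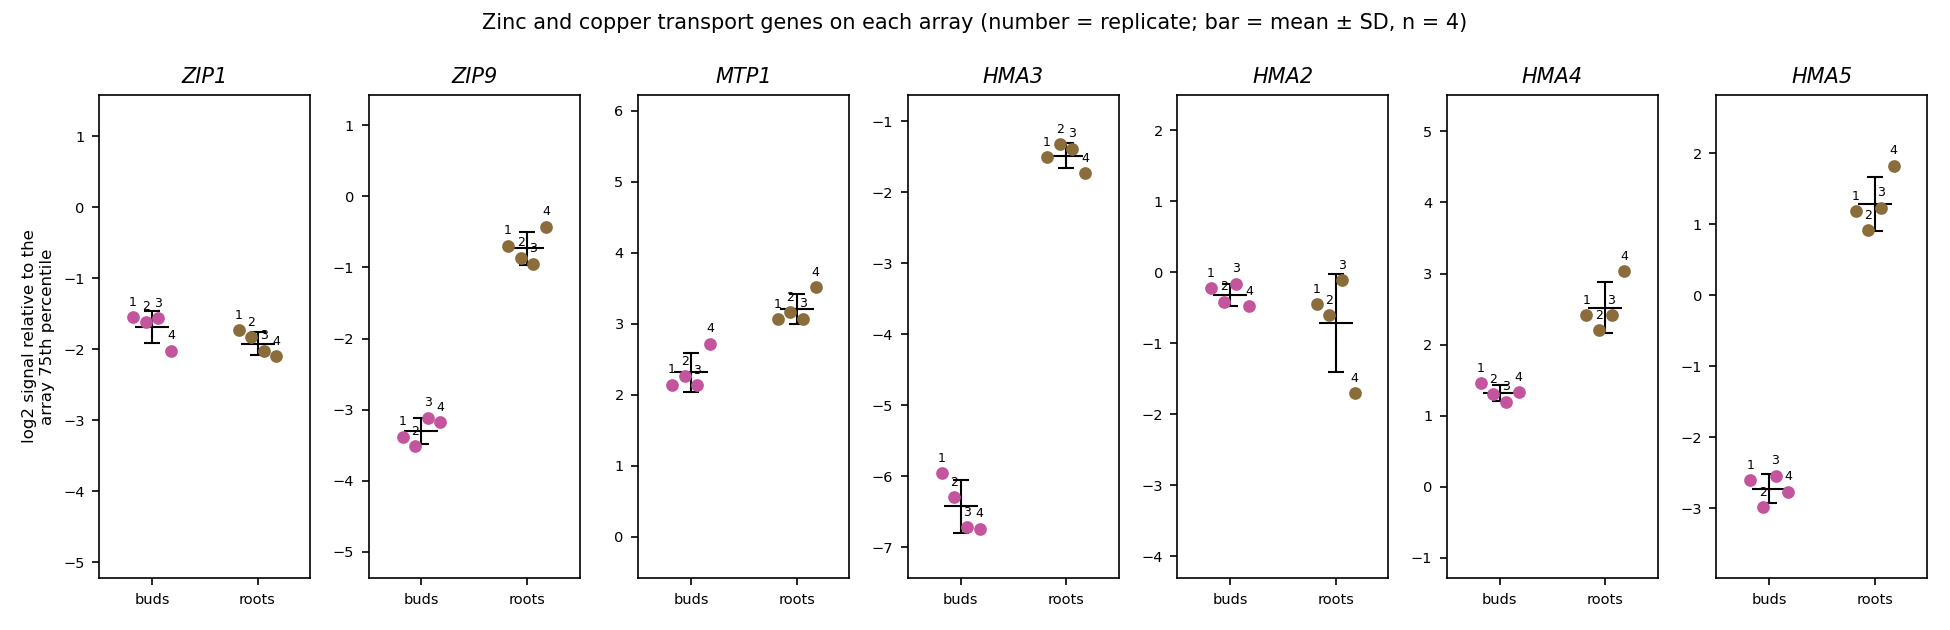
Signal of the 7 zinc and copper transport genes on each array (y axis: log2 relative to the 75th percentile of the array, with the same span but its own offset in every panel), flower buds left of roots. Points are arrays, numbers are replicates and bars are means ± SD (n = 4); the tissues are separated for ZIP9, MTP1, HMA3, HMA4 and HMA5, overlap for ZIP1 and HMA2, and root replicate 4 lies low for HMA2.

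Uptake was represented by ZIP1 and ZIP9, whose transcripts are known to accumulate in zinc-deficient plants. ZIP9 gave -3.38, -3.52, -3.11 and -3.18 in flower buds 1 to 4, against -0.69, -0.86, -0.95 and -0.42 in roots 1 to 4 (log2 level). Every flower bud array lay below every root array, with a gap of 2.16 between the nearest arrays. The means were -3.30 ± 0.19 in flower buds and -0.73 ± 0.23 in roots (SD, n = 4 each), and the difference of -2.57 ± 0.15 (adjusted p = 7.12e-07, limma) was lower than that of all but 12.6% of tested genes.

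ZIP1, which is known to restore zinc uptake to yeast mutants, showed no such separation. Its level was -1.54, -1.61, -1.56 and -2.02 in flower buds 1 to 4, against -1.73, -1.83, -2.02 and -2.09 in roots 1 to 4. Flower bud replicate 4 lay within the root range, and the other 3 flower bud arrays lay above it. The means were -1.68 ± 0.23 in flower buds and -1.92 ± 0.17 in roots, and the difference of 0.24 ± 0.14 did not pass (adjusted p = 0.149, limma). Its 95% interval was -0.09 to 0.56. With scaling on the reference genes the difference was 0.75 (adjusted p = 0.00100, limma), and without flower bud replicate 4 it was 0.35 (adjusted p = 0.0250, limma), both past the p threshold and under 2-fold.

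The gene whose centred values over the 8 arrays lay nearest to those of ZIP9 was AT5G07360, at a root mean square distance of 0.12 on the log2 scale and with a tissue difference of -2.53, followed by CYP71B13 (distance 0.13, difference -2.67). For ZIP1 the nearest were BRI1 (distance 0.060, difference 0.20) and USP (distance 0.078, difference 0.16). These neighbours were taken from 17961 other genes well above background on all 8 arrays.

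Storage in the vacuole was represented by MTP1 and HMA3, and both were lower in flower buds, with a small difference for MTP1 and a large one for HMA3. MTP1, which exchanges protons for zinc at the vacuolar membrane, gave 2.14, 2.27, 2.13 and 2.72 in flower buds 1 to 4, against 3.07, 3.16, 3.07 and 3.51 in roots 1 to 4. Replicate 4 was the highest in each tissue, and the highest flower bud array stayed 0.35 below the lowest root array. The means were 2.32 ± 0.28 in flower buds and 3.20 ± 0.21 in roots, and the difference was -0.89 ± 0.17 (95% interval -1.27 to -0.51, adjusted p = 0.00113, limma). Without flower bud replicate 4 the difference was -1.02 and met both criteria, as it did with scaling on the array median (-1.01), while scaling on the reference genes gave -0.38 (adjusted p = 0.0673). The nearest genes over the 8 arrays were CKA1 (distance 0.071, difference -0.86) and AT3G10770 (distance 0.077, difference -0.79).

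HMA3, a heavy metal ATPase of the vacuolar membrane, gave -5.96, -6.30, -6.71 and -6.74 in flower buds 1 to 4, against -1.51, -1.33, -1.39 and -1.73 in roots 1 to 4. The tissues were 4.23 apart at their nearest arrays, the widest gap among the 7 genes. The means were -6.43 ± 0.37 in flower buds and -1.49 ± 0.18 in roots, and the difference was -4.94 ± 0.19 (adjusted p = 7.50e-08, limma), with 6.54% of tested genes lower still. Its processed signal was 67.3, 52.8, 39.7 and 39.9 on flower bud arrays 1 to 4, against 1079, 884, 1196 and 814 on root arrays 1 to 4. The dimmest spots that counted as well above background on those flower bud arrays stood at 7.62 to 9.37, so HMA3 was low but measured there. At such signals the processing mattered, and normexp background correction with an added offset of 50 gave -3.82 in place of -4.94. An added constant by itself shrinks a log2 difference of dim signals, and the parts of offset and background correction were not separated.

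Within flower buds, HMA3 deviated from its mean by 0.47, 0.13, -0.29 and -0.31 in replicates 1 to 4. The 5 late pollen markers had median deviations of 1.04, 0.37, -0.20 and -1.11 on the same arrays, and their summed level ran from 4.60 to 18.4 in flower buds and from 0.0547 to 0.0756 in roots. All 5 were called higher in flower buds, and VGD1, AHA9 and PRK2 were not well above background on any root array. Median deviations of floral organ identity markers were 0.20, 0.09, -0.13 and -0.17, and those of endodermis markers 0.19, 0.21, -0.06 and -0.08. Xylem markers gave 0.13, 0.08, -0.05 and -0.10, and green tissue markers 0.08, 0.06, -0.05 and -0.14. Higher values in replicates 1 and 2 were thus not particular to the pollen markers. The part of any of these markers in the spread of HMA3 was not tested. The genes nearest to HMA3 over the 8 arrays were AT1G13830 (distance 0.097, difference -5.02) and NRT1.9 (distance 0.12, difference -5.01).

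Zinc export towards the xylem was represented by HMA2 and HMA4, which are known to act redundantly in moving zinc from root to shoot, and only HMA4 was called. HMA4 gave 1.46, 1.30, 1.19 and 1.33 in flower buds 1 to 4, against 2.41, 2.21, 2.42 and 3.03 in roots 1 to 4. The tissues did not overlap, and root replicate 4 stood highest. The means were 1.32 ± 0.11 in flower buds and 2.52 ± 0.36 in roots, and the difference was -1.20 ± 0.18 (95% interval -1.60 to -0.79, adjusted p = 0.000271, limma). With scaling on the reference genes it was -0.69 (adjusted p = 0.00755), under 2-fold. The nearest gene over the 8 arrays was AT2G37150 (distance 0.080, difference -1.27).

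HMA2 gave -0.23, -0.42, -0.16 and -0.48 in flower buds 1 to 4, against -0.45, -0.61, -0.11 and -1.70 in roots 1 to 4. Root replicate 3 was the highest of the 8 arrays and root replicate 4 the lowest, so the root range enclosed the flower bud range. The means were -0.32 ± 0.15 in flower buds and -0.72 ± 0.69 in roots, and 10.3% of tested genes had a larger SD among roots. The difference of 0.40 ± 0.31 did not pass (adjusted p = 0.267, limma). Its 95% interval of -0.33 to 1.12 does not exclude a level 2-fold higher in flower buds. Without root replicate 4 the difference was 0.07 (adjusted p = 0.681, limma), and with scaling on the reference genes it was 0.91 (adjusted p = 0.0235, limma), past the p threshold and under 2-fold. The nearest genes were WOX4 (distance 0.11, difference 0.29) and RHA2B (distance 0.18, difference 0.40).

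Xylem markers were themselves higher in roots: 7 of 8 were called, with a median difference of -1.41 and a summed level of 6.13 to 7.41 in flower buds and 20.3 to 28.7 in roots. Within roots their median deviation was 0.05, 0.26, -0.04 and -0.25 in replicates 1 to 4, lowest in replicate 4, where HMA2 was lowest and HMA4 highest. Their part in the values of HMA2, HMA4 and HMA5 was not tested.

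Copper export was represented by HMA5. It gave -2.60, -2.98, -2.54 and -2.76 in flower buds 1 to 4, against 1.19, 0.91, 1.23 and 1.82 in roots 1 to 4. All flower bud arrays lay at least 3.45 below all root arrays, and root replicate 4 was again the highest. The means were -2.72 ± 0.20 in flower buds and 1.29 ± 0.38 in roots, and the difference was -4.01 ± 0.20 (95% interval -4.47 to -3.55, adjusted p = 3.18e-07, limma). A lower difference was found for 8.30% of tested genes. The nearest genes over the 8 arrays were AT1G69450 (distance 0.16, difference -4.00) and RABA4C (distance 0.18, difference -3.96).

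**Figure D2:**
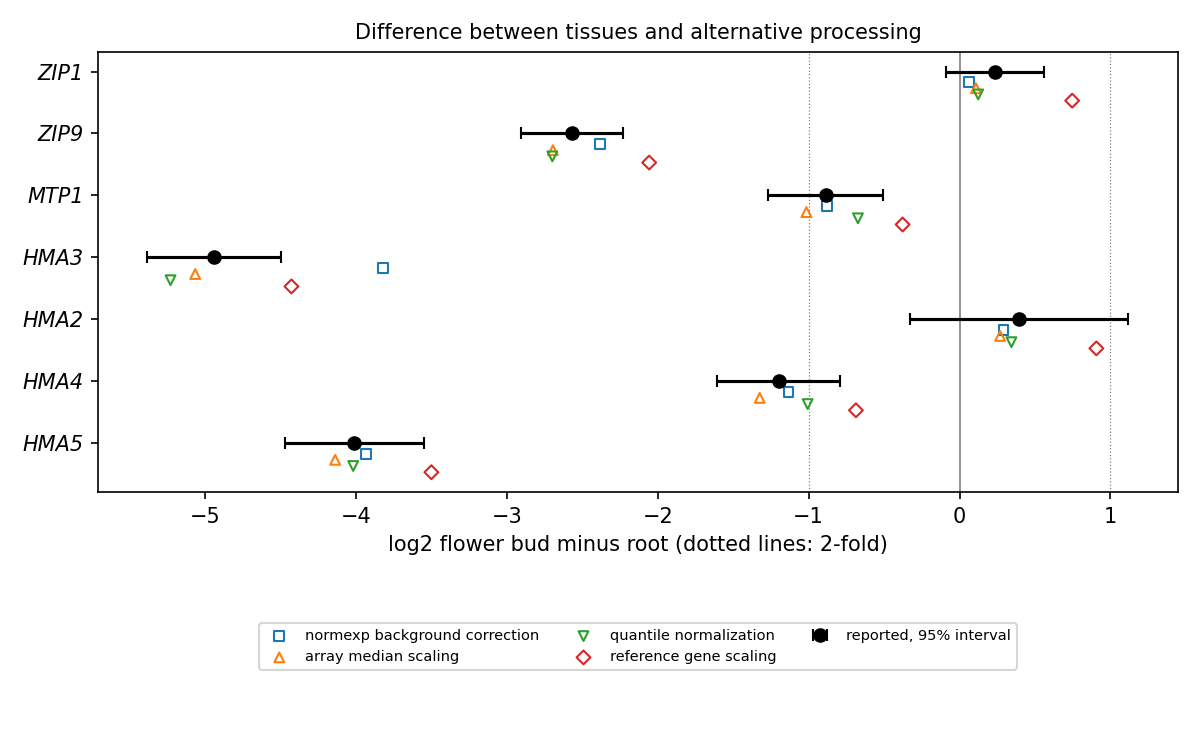
Difference between flower buds and roots for the 7 genes (x axis: log2 flower bud minus root; black points with 95% intervals are the reported limma values, open symbols are alternative background correction or scaling, dotted lines mark 2-fold). HMA3, HMA5 and ZIP9 lie beyond 2-fold towards roots under each setting drawn, HMA4 and MTP1 lie near the 2-fold line, and reference gene scaling moves all 7 towards flower buds by 0.51.

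Because HMA2 and HMA4 share a role, the change of their ratio between tissues was compared within each array, which needs no scaling between arrays. The log2 ratio of HMA2 over HMA4 was -1.69, -1.72, -1.36 and -1.80 in flower buds 1 to 4, against -2.86, -2.81, -2.53 and -4.73 in roots 1 to 4. All flower bud arrays lay above all root arrays. The mean was -1.64 ± 0.19 in flower buds and -3.23 ± 1.01 in roots, a change of 1.59 or 3.02-fold in the ratio (exact two-sided permutation test over 70 arrangements, p = 0.0286, the smallest they can give, and 0.0286 after adjustment over 2 ratios). Without root replicate 4 the change was 1.09, with an adjusted exact p of 0.0286. Without any single flower bud replicate the adjusted exact p was 0.0571.

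HMA2 and HMA3 are neighbouring genes with no gene listed between them. The log2 ratio of HMA2 over HMA3 was 5.73, 5.88, 6.55 and 6.26 in flower buds 1 to 4, against 1.06, 0.72, 1.28 and 0.03 in roots 1 to 4. The tissues were far apart, with a mean of 6.10 ± 0.37 in flower buds and 0.77 ± 0.55 in roots. The change of 5.33, or 40.3-fold, had the same exact p of 0.0286 (adjusted 0.0286) and was 5.09 without root replicate 4 and 4.11 under normexp. Its adjusted exact p was also 0.0571 without any single flower bud replicate, although the tissues stayed far apart. The adjustment takes in both ratios, so this value also depends on the exact p of HMA2 over HMA4. Leaving out root replicate 4 removes 1 array as well, and the adjusted exact p of HMA2 over HMA4 was then 0.0286. Neither ratio says which gene of a pair had more transcript, since probes differ in brightness. Whether the probes tell the related HMA genes apart was not tested.

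On each of the 8 arrays, some of the 7 genes lay above and others below the mean of the tissue. Root replicate 4 was the highest root array for HMA4, HMA5, ZIP9 and MTP1 and the lowest for HMA2, HMA3 and ZIP1. Its deviations from the root mean were 0.52 for HMA4, 0.53 for HMA5, 0.31 for ZIP9 and 0.31 for MTP1, against -0.98 for HMA2, -0.24 for HMA3 and -0.17 for ZIP1. Root replicate 4 was thus at an extreme for each of the 7 genes, with no common direction. Among flower buds, replicate 4 was highest for MTP1 (0.41) and lowest for HMA2 (-0.15), HMA3 (-0.31) and ZIP1 (-0.34). The median SD over all tested genes was 0.17 among flower buds and 0.21 among roots, and among roots the SDs of HMA2 (0.69), HMA4 (0.36), HMA5 (0.38) and ZIP9 (0.23) were above that median.

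**Figure D3:**
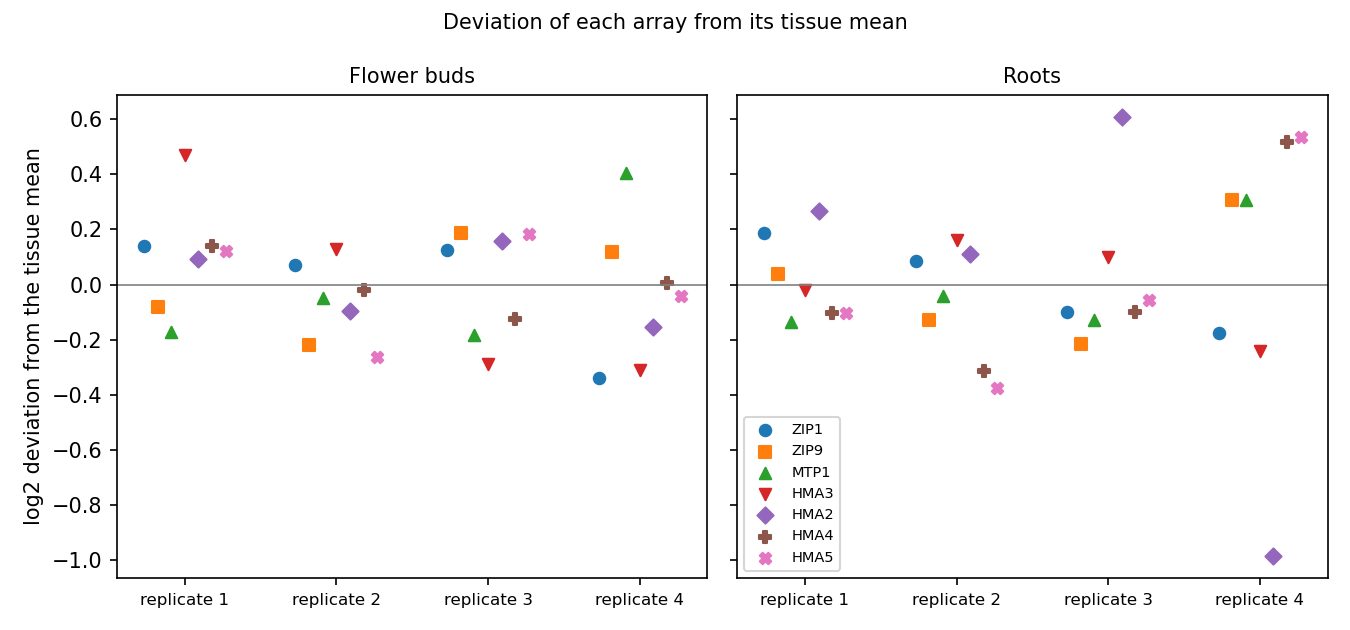
Deviation of each array from the mean of its tissue for the 7 genes (y axis: log2 units; x axis: replicate; flower buds in the left panel, roots in the right panel). Root replicate 4 runs from -0.98 for HMA2, the lowest deviation drawn, to 0.53 for HMA5. The highest deviation drawn is 0.61, for HMA2 in root replicate 3.

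Of 54 other zinc and copper genes in 7 lists, 53 had a matched probe (not ZIP8) and 52 were tested (not ZIP12). Of these, calls higher in flower buds numbered 12, calls higher in roots 19, and 21 genes were not called, or 59.6% called, near the 55.0% of all genes. Their median difference was -0.43, and negative medians nearer to 0 than 0.51 change sign with scaling on the reference genes.

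Other ZIP and IRT transporters, the family of ZIP1 and ZIP9, were mostly higher in roots. Of the 10 tested, 7 were called higher in roots, against 25.2% of all tested genes. Of the others, 2 were not called and 1 was called higher in flower buds, and the median of the list was -3.76. ZIP3, a zinc transporter of roots, gave -5.52, -5.38, -5.33 and -5.68 in flower buds 1 to 4, against 1.96, 2.13, 1.70 and 1.49 in roots 1 to 4. The difference of -7.30 ± 0.16 (adjusted p = 3.08e-09, limma) exceeded that of any of the 7 genes above in size. ZIP10 was not well above background on any flower bud array and was at least 63.0-fold higher in roots, a bound set by the dimmest measurable spots (adjusted p of the fit 1.26e-08, limma). Under normexp its log2 difference was -3.28, smaller in size than that bound. ZIP7 was the exception, at -6.87, -5.95, -5.81 and -6.13 in flower buds 1 to 4, against -9.80, -7.89, -6.34 and -9.28 in roots 1 to 4. Only 1 of 4 root arrays measured it well above background. The difference of 2.14 ± 0.71 (adjusted p = 0.0214, limma) turned to -0.03 under normexp. It was not called without root replicate 1 (1.65), root replicate 4 (1.82) or flower bud replicate 3 (2.01).

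The other heavy metal ATPases did not move one way. PAA1 and PAA2, which bring copper into chloroplasts and thylakoids, were higher in flower buds by 1.21 ± 0.12 and 1.37 ± 0.12 (adjusted p = 2.49e-05 and 8.64e-06, limma). The 5 green tissue markers were also called higher there, with a summed level of 349 to 383 in flower buds and 0.353 to 0.549 in roots, and their part in these values was not tested. RAN1, which supplies copper to ethylene receptors, averaged -0.51 ± 0.12 in flower buds and 2.66 ± 0.12 in roots, a difference of -3.17 ± 0.10 (adjusted p = 2.38e-08, limma). HMA1, a chloroplast envelope ATPase and the remaining member of that list, was 0.65 ± 0.07 and under 2-fold, and the median of the 4 was 0.93.

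Of the 11 other MTP genes, 9 were called in neither direction, with a median of -0.16. MTP3, a vacuolar zinc transporter of roots, averaged -4.53 ± 0.07 in flower buds and -0.11 ± 0.23 in roots and was the one called higher in roots, at -4.42 ± 0.12 (adjusted p = 1.31e-08, limma). With no root array well above background, MTP2 stood at least 4.77-fold higher in flower buds, but under normexp its difference was 0.49 and was not called.

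Copper uptake genes moved in opposite directions. Of the 8 COPT transporters and copper reductases, calls numbered 3 towards flower buds and 4 towards roots, with a median of -1.01. The COPT transporters were themselves split. On the reported scale COPT4 (-2.06 ± 0.11) and COPT5 (-1.34 ± 0.08) were called higher in roots (adjusted p = 4.98e-07 and 9.80e-07, limma). COPT6 averaged -0.87 ± 0.34 in flower buds and -5.25 ± 0.28 in roots, a difference of 4.38 ± 0.20 (adjusted p = 2.19e-07, limma), and COPT3 stood at least 35.4-fold higher in flower buds, with no root array well above background. The reductases FRO4 and FRO5, which reduce copper at the root surface before uptake, were higher in roots. FRO4 differed by -3.68 ± 0.51 (adjusted p = 0.000185, limma), and FRO5 was at least 50.6-fold higher in roots, with no flower bud array well above background. Under normexp the log2 difference was 2.87 for COPT3 and -3.13 for FRO5, both smaller in size than their bounds and still called.

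Among 8 copper chaperones and copper proteins, calls numbered 2 in either direction, with a median of -0.19. The plastocyanin genes PETE1 and PETE2, which encode the copper protein of photosynthetic electron transport, were higher in flower buds by 9.75 ± 0.17 and 9.75 ± 0.20 (adjusted p = 1.10e-09 and 2.18e-09, limma). The chaperones CCH and ATX1, which hand copper to ATPases such as RAN1 and HMA5, were higher in roots, at -1.89 ± 0.25 and -1.17 ± 0.10 (adjusted p = 0.00016 and 1.19e-05, limma). With scaling on the reference genes ATX1 was -0.66 and under 2-fold.

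The regulators differed among themselves. BZIP19 and BZIP23 encode the transcription factors that switch on ZIP genes under zinc deficiency. BZIP19 gave -0.07, -0.03, 0.03 and 0.34 in flower buds 1 to 4, against 1.63, 1.57, 1.59 and 1.64 in roots 1 to 4, without overlap and with a difference of -1.54 ± 0.11 (adjusted p = 2.36e-06, limma). BZIP23 ran the other way, at -0.90, -0.84, -0.74 and -0.55 in flower buds 1 to 4, against -1.69, -1.73, -1.88 and -2.11 in roots 1 to 4, with a difference of 1.09 ± 0.13 (adjusted p = 5.80e-05, limma). BZIP23 stayed just under 2-fold with scaling on the array median (0.97) and with quantile normalization (1.00). SPL7, the regulator of the copper deficiency response, differed by -0.44 ± 0.09 (adjusted p = 0.00172, limma), under 2-fold, and its sign turned with scaling on the reference genes (0.07).

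Among 8 metallothioneins and other zinc tolerance genes, 2 were called higher in flower buds, 3 higher in roots and 3 in neither direction, with a median of -0.02. The metallothionein MT2A averaged 6.01 ± 0.04 in flower buds and 2.24 ± 0.45 in roots, a difference of 3.78 ± 0.21 (adjusted p = 6.07e-07, limma), and MT3 differed by 1.32 ± 0.14 (adjusted p = 3.00e-05, limma). PCR2, a zinc exporter of the plasma membrane, averaged -1.65 ± 0.48 in flower buds and 5.02 ± 0.33 in roots, a difference of -6.67 ± 0.26 (adjusted p = 7.99e-08, limma). MT1C differed by -7.58 ± 0.29 (adjusted p = 6.27e-08, limma), and its near-identical copy MT1A by -3.51 ± 0.25 (adjusted p = 2.64e-06, limma). The MT1C probe averaged -1.46 ± 0.63 in flower buds and 6.13 ± 0.08 in roots, and the MT1A probe 3.93 ± 0.51 in flower buds and 7.44 ± 0.19 in roots, so the probes gave unequal changes. How far each also measures the other gene was not tested.

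**Figure D4:**
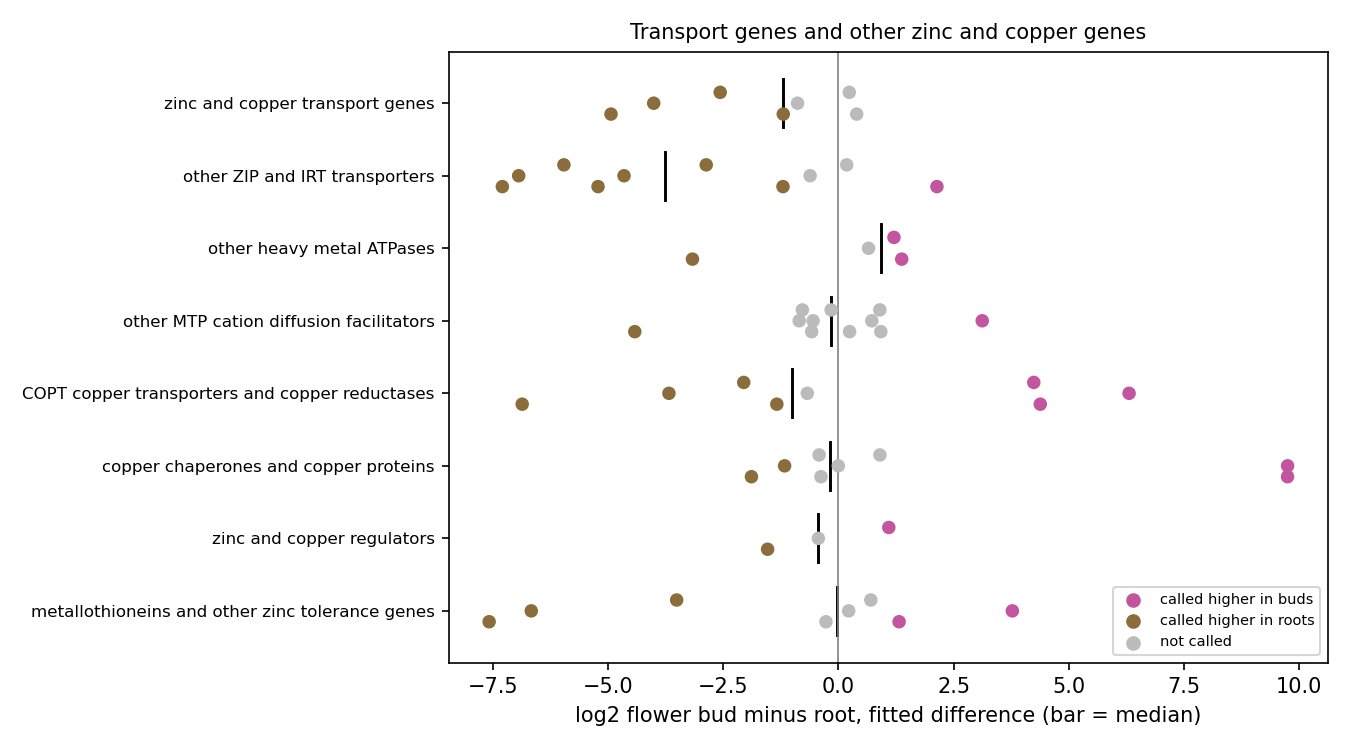
Fitted log2 difference, flower bud minus root (x axis), for the 7 zinc and copper transport genes in the top row and 52 other zinc and copper genes by list below. Points are genes, coloured by call, and vertical bars are medians; genes not well above background in 1 tissue are drawn at the fitted difference, for which the text gives a bound. The ZIP and IRT row has its median at -3.76, and the plastocyanin genes stand farthest towards flower buds at 9.75.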

How the data were processed

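Total RNA of 4 flower bud and 4 root pools had been hybridised to one-colour Agilent arrays. The deposited scanner files hold spot intensity on a linear scale, already background-subtracted by Agilent Feature Extraction 10.10.1.1 and not scaled between arrays, per the file headers. The authors' deposited value table holds log2 values; against the scanner files its scale, centring on each probe's median and direction were settled from the values (Pearson's r of at least 0.9993 per array), and the steps behind it are not stated in these sources. Its column medians were -0.0084, -0.0559, -0.0417 and -0.0592 for flower buds 1 to 4 and -0.0098, 0.0957, 0.0908 and 0.0263 for roots 1 to 4. It served as an alternative.

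Control spots, 6 to 191 outlier spots per array and 408 repeated lines in 6 files were left out, and 0 spots were saturated. The log2 processed intensity minus the 75th percentile of each array was averaged per probe. Of 43603 probes, 34285 matched 1 locus through the RefSeq gene table (used for names and gene order only) and 9318 matched none. A gene was tested where its brightest probe was well above background on every array of 1 tissue or both. Fits used limma 3.58.1 (lmFit, eBayes; R 4.3.3) with tissue as the only term and were tested on simulated data; tables used Python 3.11.15, pandas 2.3.3 and numpy 2.4.6. A bound divides the brighter tissue's mean by the dimmer tissue's mean of, per array, the probe's signal or the lowest signal called well above background, whichever is higher.

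The genes and lists were chosen with earlier results of these data known. Named are all matched genes of the set, from each list the 2 largest called differences in each direction, all regulators, and for each gene of the set the 2 genes nearest in centred log2 values. HMA1, MT1A, COPT4 and COPT5 were added after their values were seen, and the result of 1 gene that the rule selects is left out here. Alternatives were normexp background correction (offset 50, on the median signal, as no mean signal is in the files), array median, quantile and reference gene scaling, no filter or a stricter one, the mean of all probes, the value table, a replicate block and leaving out each array. Of 4 planned ratios, the 2 with ZIP4 were not run.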

Additional observations from a re-analysis of the deposited data

Results flagged for a closer look

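In 64 groups of 4 arrays, a single array was screened for standing far from the other 3, which chance alone flags in about 1 in 20 groups, and 3 did. Flower bud replicate 4 had the lowest ZIP1 level among flower buds, at -2.02, apart from the other 3 flower bud arrays. Flower bud replicate 1 had the lowest level of the copper chaperone gene ATX1 among flower buds, at 3.52, while the other 3 arrays lay at 3.67 to 3.69. Root replicate 4 had the lowest log2 ratio of HMA2 over HMA4 among roots, at -4.73, where HMA2 was the lowest and HMA4 the highest of the root arrays.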

How the results depend on the processing

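The direction of all 7 genes was the same under each of the 17 alternatives. Both filter settings, the mean of all probes and the replicate block leave these differences unchanged by design, so they could not turn a direction. HMA4 was under 2-fold with reference gene scaling (-0.69), and MTP1 reached 2-fold with array median scaling (-1.01) and without flower bud replicate 4. Genes called higher in flower buds stayed at 0 throughout, and those called higher in roots were 3 with reference gene scaling, 5 with array median scaling and 4 to 5 with 1 array left out. Over all tested genes, calls higher in roots were 5617 as reported, 4289 with reference gene scaling and 6066 with array median scaling. With 1 array left out, the differences ranged from 0.07 to 0.60 for HMA2, -5.09 to -4.83 for HMA3, -1.30 to -1.03 for HMA4, -4.14 to -3.83 for HMA5, 0.18 to 0.35 for ZIP1, -2.64 to -2.46 for ZIP9 and -1.02 to -0.79 for MTP1, and the changes in ratio from 1.09 to 1.83 for HMA2 over HMA4 and 5.09 to 5.50 for HMA2 over HMA3. The ratios had an adjusted exact p of 0.0571 without any 1 flower bud replicate. The sign turned for ZIP7 under normexp (-0.033) and for SPL7 with reference gene scaling (0.075); the cause was not tested. Among the 23 named genes of the other lists, 377 of 386 values kept their direction and call. The other lists had 12 genes called higher in flower buds (18 with reference gene scaling, 9 when the test was limited to genes measured above background on every array, 11 to 13 with 1 array left out) and 19 higher in roots (16 with reference gene scaling and with that limit, 19 to 20 with 1 array left out). Deviations of genes from their tissue means correlated at -0.27 to 0.10 between same-numbered flower bud and root arrays, over 4 pairs. The numbers were therefore not taken as pairs. With the replicate number as a block, 4 of the 7 genes were called higher in roots, as without it. HMA4 was then -1.20 (adjusted p = 0.0017, limma), and 12206 genes were called in all, against 12251. Dim signal limits HMA3 in flower buds and ZIP7 in roots. The offset of 50 added under normexp draws log2 differences of dim probes towards 0, apart from its background correction.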

Other observations

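COPT1, a copper transporter of the plasma membrane that the rule for naming genes did not select, was chosen after its value was seen. It gave 0.69, 0.62, 0.27 and 0.71 in flower buds 1 to 4, against -3.59, -3.10, -4.03 and -3.97 in roots 1 to 4. The tissues did not overlap, and the difference was 4.24 ± 0.22 (adjusted p = 3.74e-07, limma).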
